A study of Solanum lycopersicum with 40 samples.

Results

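Ripe fruit of the transgenic tomato lines N7 and N6 was compared. Both express the same kind of foreign gene, for InsP 5-ptase (inositol polyphosphate 5-phosphatase), in the dwarf cultivar Micro-Tom. The arrays were chosen by their sample titles, 4 for N7 and 4 for N6, which are 8 of the 16 fruit arrays and 8 of the 40 arrays in all. The other fruit arrays, 4 of wild type (WT) and 4 of a vector control (VC), entered the fit for the spread between arrays. Plants of all 4 genotypes grew in pots in a growth chamber, had no special treatment, and gave ripe fruit of the same age. The titles call the fruit replicates biological. The promoter of the introduced gene, the number of transformation events behind a line and the number of plants per sample were not stated in the labels. Each array gave 1 signal for each of 10209 probe sets on a linear scale, of which 6208 were tested here.

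An InsP 5-ptase removes a phosphate from soluble inositol phosphates, among them inositol trisphosphate, a messenger that releases calcium from internal stores in plant and animal cells. Tomato fruit ripens under the control of ethylene, which is made from its precursor ACC by ACC oxidases and is read out by EIN3-like factors and by factors of the ERF family. Softening of the ripe fruit involves enzymes and proteins that act on pectin and xyloglucan in the cell wall. The comparison asks how far fruit of 2 lines that carry the same kind of gene differ from each other.

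The labels were checked first. The reporter probe set A06498, one of the control probe sets for sequences used in plant transformation, read 237, 336, 280.3 and 259.6 on fruit N7 1 to 4. On the arrays labelled fruit N6 1 to 4 it read 4.76, 20.3, 5.42 and 18.2. The lines did not overlap (two-sided exact permutation test, p = 0.0286, the smallest that 4 against 4 can give). Its mean in the arrays labelled N6 was 12.2 ± 8.22 (SD, n = 4), within the range of the WT and VC fruit arrays, 2.28 to 24.5, whereas N6 read 139 ± 41.9 in leaf and 328 ± 108 in root tips (n = 3 each). The fruit arrays labelled N6 therefore go against their label in this probe set, and N6 below stands for the arrays with that label. Transcripts picked after their values were seen went both ways, and such a choice cannot tell which line these arrays came from. Some set these arrays apart from the controls on the same side as N7. Others set N7 apart and these arrays with the controls, such as APS1 at 135 to 157 in N6, 43.5 to 66.0 in N7 and 89.0 to 167 in the controls. Of the first kind, CIF1, an inhibitor of invertase, read 1966 to 3079 in N6 and 3093 to 4071 in N7 against 355 to 779.9 in the controls. TPSI1 read 79.9 to 228 in N6 and 220.1 to 457 in N7 against 806 to 2592. A second reporter, M62653, read 1198 to 4416 on the WT fruit arrays and 5161 on VC 4, against 6.37 to 10.1 on VC 1 to 3. The array labelled VC 4 therefore goes against its label in M62653, where it reads like the fruit WT arrays, and contrasts with VC are given with and without it. The fruit WT arrays in turn go against WT in other tissues, where M62653 read 0.581 to 10.5 in leaf and 4.23 to 12.3 in root tips. The origin of the fruit WT arrays was not tested, and they stay in the fit and in the control ranges below. On the line arrays M62653 read 0.272 to 51.0 in N6 and 7.38 to 9.11 in N7. Arrays of N6 correlated at 0.974 to 0.993 with each other across probe sets, those of N7 at 0.962 to 0.990, and arrays of different lines at 0.951 to 0.978. The log2 ratio of 3' to 5' signal over control transcripts, a measure of RNA integrity and labelling, averaged 3.20 ± 0.38 in N7 and 3.63 ± 0.36 in N6 (exact permutation test, p = 0.143). Among the controls it was lowest on WT 3 at 2.67 and VC 4 at 2.96, and N7 1 and N7 2 were also low at 2.94 and 2.88. WT 3 and VC 4 had the highest shares of probe sets above the floor of 50 among the fruit arrays, 63.8% and 61.3%.

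Ripe fruit markers were bright in both lines. All 9 measured members of the list (PG2, E8, Psy1, LOXB, Cel2, EXP1, RIN, TBG4 and loxC) exceeded the floor on each of the 8 line arrays, with TBG4 on N7 3 the lowest at 289.6. Bright does not mean at control level. PG2 lay under all controls, 5685 to 10536, in both lines, and TBG4 in N6 lay above all controls, 253 to 493. None of the 9 was called, and 2 passed an unadjusted p of 0.05. RIN, the MADS-box regulator of ripening, read 3376, 2836, 2947 and 2936 on N6 1 to 4 and 2984, 2789.6, 3358 and 4658 on N7 1 to 4, with overlapping groups (log2 difference 0.16 ± 0.15 SE, adjusted p = 0.681). Of the lists for other tissues, seed and vascular tissue had 1 measured member each, CHI9 and TPx1, and neither was called. Of the 4 measured green tissue markers, CAB4 was higher in N7. The others were PSBP at 0.77 ± 0.23 (adjusted p = 0.0957), PSBO at 0.46 ± 0.33 and PsbQ at 0.24 ± 0.29. CAB4 and PSBP were called with the 8 line arrays alone, and PSBO as well without WT 3 and VC 4, all higher in N7.

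The lines differed in 180 of 6208 tested probe sets (2.9%) at an adjusted p under 0.05 from limma, with 120 higher in N7 (1.93%) and 60 lower (0.966%). Values under 50 were set to 50 before log2 was taken, so a difference from a group at that floor is a lower bound. Over 2-fold differences numbered 56 higher and 23 lower. At an unadjusted p under 0.05 were 1016 of the 6208, the share to set beside the counts at that p in the gene lists below. The median log2 difference was 0.04 over all tested probe sets, and the median size was 0.90 among those called against 0.20 over all. In 174 of the 180 the 4 arrays of one line all lay on one side of the 4 arrays of the other, which was so for 15.3% of all tested probe sets. The split by direction depended on scaling. The share higher in N7 was 66.7% with the deposited scaling, 54.9% after quantile normalization and 46.9% after scaling to equal medians, where 96 were called. With the 8 line arrays alone in the fit, 400 were called (6.44%), of which 156 were among the 180. With WT 3 and VC 4 left out, 708 were called (11.4%), the 180 among them.

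**Figure D1:**
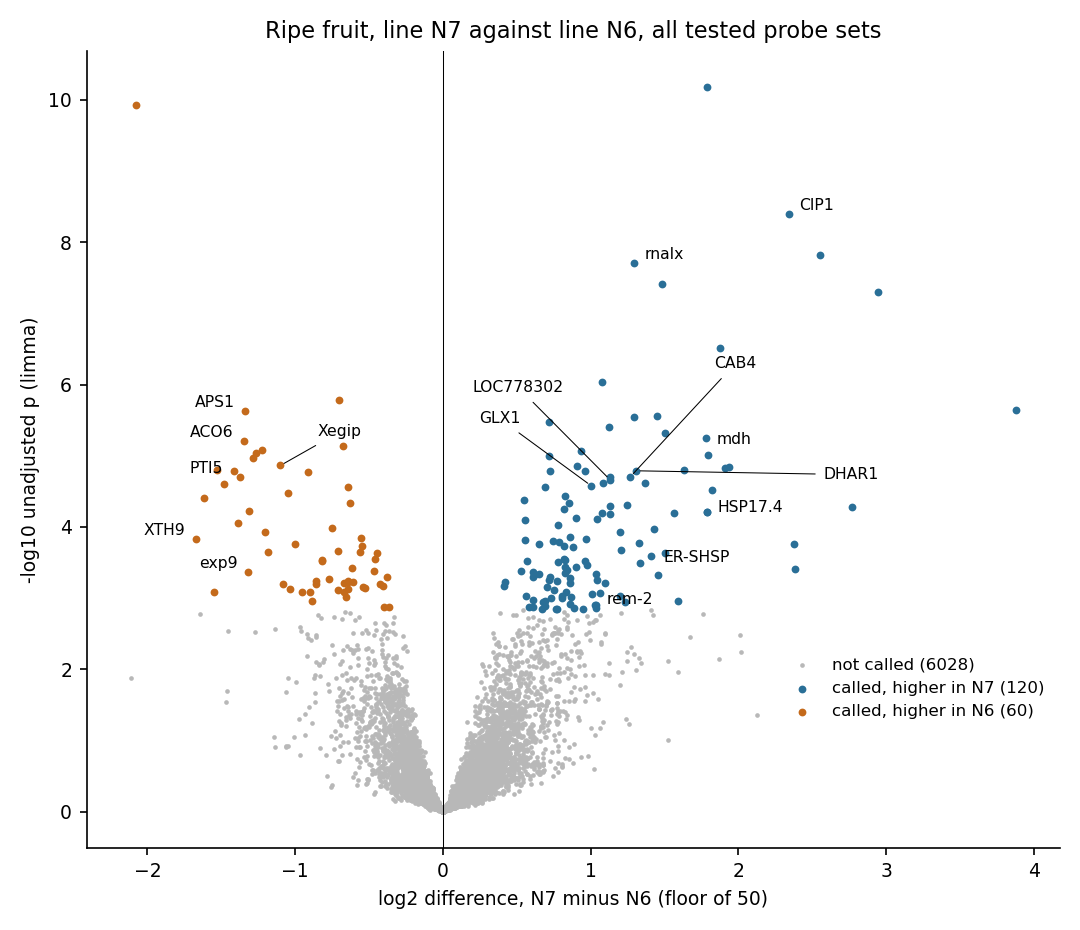
Each point is 1 of the 6208 tested probe sets, with the log2 difference N7 minus N6 in ripe fruit on the horizontal axis and -log10 of the unadjusted limma p on the vertical axis. Blue points are the 120 called higher in N7 and orange points the 60 called higher in N6, with CIP1 and rnalx the named genes of smallest p.

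Gene symbols were at hand for 628 of the tested probe sets, and 29 of these were called (4.62%), 18 higher in N7 and 11 lower. All 29 kept their direction in each alternative setting that gave a difference. When each of the 16 fruit arrays was left out in turn, 16 of the 29 stayed called throughout and 13 lost the call at least once. Over all settings tried, 8 kept it throughout (ACO6, APS1, CIP1, DHAR1, GLX1, mdh, rnalx and XTH9). Scaling to equal medians ended 18 of the 29 calls, those on HSP17.4, ER-SHSP, CAB4, LOC778302, rem-2, DREB2, ST3, EIL4, H1, LOC543663, GP1, APS-AA2, CGS, PE1, LHA2, JA2, AN35 and JERF3. The 8 line arrays alone ended 6. The account below follows the roles of the genes, with the losses on leaving out an array, with equal medians or with the 8 line arrays alone beside the gene.

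Transcripts of small heat shock proteins, chaperones that hold unfolded proteins, were higher in N7 for 2 of 6 measured genes of the chaperone list, with none lower and a list median of 0.57. At an unadjusted p under 0.05 were 4 of the 6. HSP17.4 read 128, 169.6, 107 and 157 on N6 1 to 4 and 500.1, 482, 465 and 457 on N7 1 to 4. All N7 arrays lay close together and above all N6 arrays, a 3.45-fold difference (log2 difference 1.78 ± 0.33 SE, adjusted p = 0.00626, and 0.0901 with equal medians). Both lines lay under the 8 control arrays, which read 1044 to 3355. Against VC the log2 difference was -3.96 (adjusted p = 6.46e-07) in N6 and -2.18 (adjusted p = 0.000309) in N7, in contrasts that called 17.5% and 22.1% of all tested probe sets and share the VC arrays. VC 4 read 1044 for HSP17.4 against 2485 to 3189 on VC 1 to 3, and without it the differences were -4.31 (adjusted p = 6.34e-08) and -2.53 (adjusted p = 1.12e-05), in contrasts that called 27% and 33.3%. The endoplasmic reticulum protein gene ER-SHSP read 985, 459, 329.5 and 559 in N6 and 1279.9, 1336, 1023 and 2378 in N7. The groups did not overlap, although N6 1 was close to N7 3, and the difference was 2.66-fold (log2 difference 1.41 ± 0.30 SE, adjusted p = 0.0168). The call on ER-SHSP was lost without N6 2, N6 3 or N7 4 (adjusted p 0.0613 to 0.0730) with the 8 line arrays alone (adjusted p = 0.0754) and with equal medians (adjusted p = 0.0893). The plastid protein gene HSP21 was at 0.91 ± 0.28, adjusted p = 0.107 with 16 arrays and 0.106 with 8. MTSHP and vis1 were at 0.22 and 0.21. The chaperonin gene CPN21 was at -0.33 ± 0.09, adjusted p = 0.0582 with 16 arrays and 0.0247 with 8, with N7 the lower line.

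CAB4, which encodes a chlorophyll a/b binding protein of the photosynthetic antenna, was the 1 called gene of 7 measured in the photosynthesis list (median 0.24, 2 at an unadjusted p under 0.05). It read 42.8, 73.6, 64.9 and 80.6 on N6 1 to 4 and 179, 156, 179.5 and 129.7 on N7 1 to 4. Each N7 array lay above each N6 array and under the controls, 273 to 477. The difference was at least 2.41-fold because N6 1 was under the floor (log2 difference 1.27 ± 0.21 SE, adjusted p = 0.00313, and 0.0774 with equal medians). PSBP, a protein of the water-splitting complex of photosynthesis, read 128, 163, 155 and 160.1 in N6 and 270.2, 232, 215 and 323 in N7, without overlap. It was called with the 8 line arrays alone (adjusted p = 0.0340) and not with 16 (adjusted p = 0.0957). In RNA from whole fruit, fewer cells of a type and less RNA per cell cannot be told apart.

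GLX1, glyoxalase I, which detoxifies methylglyoxal with glutathione, read 280.1, 262, 217 and 320.4 on N6 1 to 4 and 518, 591, 479 and 561 on N7 1 to 4. N7 lay at the level of the controls, 429.6 to 622, and N6 below it, a 2.00-fold difference (log2 difference 1.00 ± 0.17 SE, adjusted p = 0.00364). Against VC, GLX1 was at -0.98 (adjusted p = 0.000949) in N6 and 0.03 (adjusted p = 0.930) in N7. Without VC 4 the values were -0.90 (adjusted p = 0.00177) and 0.10 (adjusted p = 0.680). DHAR1, dehydroascorbate reductase, which regenerates ascorbate, had 2 probe sets. The dimmer, Les.1925.2.S1_at, read 412, 277, 245 and 311 in N6 and 689, 969.6, 616 and 792 in N7, above the controls at 280.2 to 498, a 2.47-fold difference (log2 difference 1.31 ± 0.22 SE, adjusted p = 0.00284). The brighter, Les.1925.1.A1_at, read 2098, 2309, 2233 and 2311 in N6 and 3214, 3319, 4280.4 and 3333 in N7. Its groups did not overlap either, and it was called with the 8 line arrays alone and not with 16 (0.65 ± 0.21, adjusted p = 0.126 with 16 arrays and 0.0113 with 8). The related DHAR2 behaved likewise (0.38 ± 0.13, adjusted p = 0.157 with 16 arrays and 0.0244 with 8). With DHAR1 counted by its brighter probe set, the redox list of 11 measured genes had a median of -0.02, no call with 16 arrays, 4 members at an unadjusted p under 0.05, and 2 calls with 8 arrays, both higher in N7. Of the 11, 5 had a difference above zero. The catalase gene cat1 was at -0.28 ± 0.12, the superoxide dismutase gene SODCC.1 at -0.24 ± 0.13 and the glutathione peroxidase gene GPXle-1 at -0.21 ± 0.10.

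The gene with the highest named difference was CIP1, for which no role is given here. It read 171, 254, 279.8 and 269.9 on N6 1 to 4 and 1458, 1309, 963 and 1185 on N7 1 to 4. N7 was 5.07-fold higher (log2 difference 2.34 ± 0.21 SE, adjusted p = 8.29e-06). The controls read 639 to 1237, a range that N7 overlapped and N6 lay under. Against VC, CIP1 was at -1.95 (adjusted p = 6.17e-06) in N6 and 0.39 (adjusted p = 0.187) in N7. Without VC 4 they were -2.13 (adjusted p = 8.53e-07) and 0.21 (adjusted p = 0.404). The gene listed as mdh read 113, 107, 92.2 and 109.8 in N6 and 396, 376, 264 and 455 in N7. Both lines lay under the controls, 537 to 1432, with N6 the lower by 3.47-fold (log2 difference 1.80 ± 0.28 SE, adjusted p = 0.00252).

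**Figure D2:**
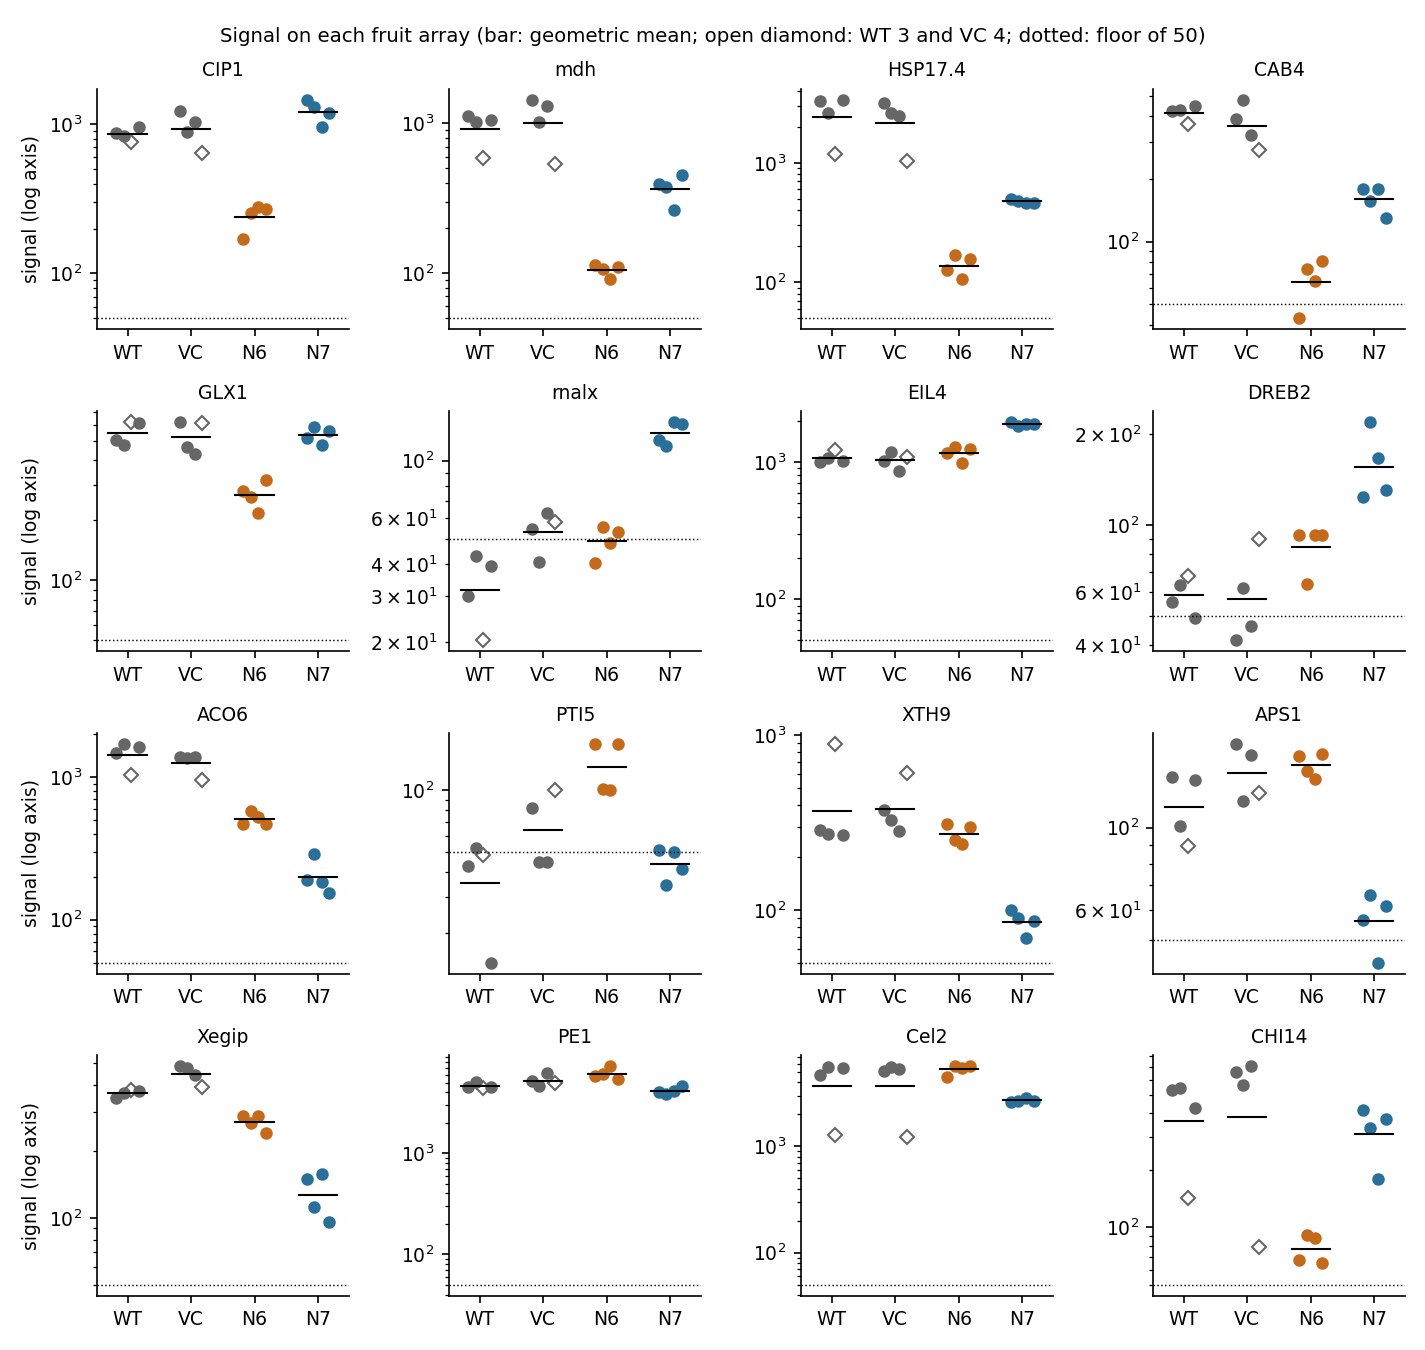
Each panel shows the deposited signal of 1 gene on a log axis, with 1 point per fruit array for wild type (WT), vector control (VC), N6 and N7, the geometric mean as a bar and the floor of 50 as a dotted line. The N6 and N7 points do not overlap in any of the 16 panels. The genes shown were called with all 16 arrays, except Cel2 and CHI14, which were called with the line arrays alone. That choice favours non-overlap, which held for 15.3% of all tested probe sets. Cel2 and CHI14 have WT 3 and VC 4 (open diamonds) far under the other controls.

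Among 24 measured genes of ethylene synthesis and signalling, 1 was higher in N7, 1 was lower and the median was 0.02. At an unadjusted p under 0.05 were 8 of the 24. With the 8 line arrays alone 3 were called higher and 1 lower, in a fit that called 6.44% of all tested probe sets. Without WT 3 and VC 4 it was 4 higher and 3 lower, where 11.4% of all were called. ACO6, an ACC oxidase of the last step of ethylene synthesis, read 466, 575, 523 and 469 on N6 1 to 4 and 191, 289, 185 and 155 on N7 1 to 4. N7 was the lower line throughout, by 2.54-fold (log2 difference -1.35 ± 0.20 SE, adjusted p = 0.00202), and both lay under the controls at 952 to 1708. A second probe set of ACO6 was at the floor on all line arrays. EIL4, an EIN3-like transcription factor of the ethylene response, read 1172, 1288, 991 and 1257 in N6 and 1961, 1821, 1887 and 1899 in N7. The N7 arrays exceeded all 12 other fruit arrays, and N7 was 1.62-fold above N6 (log2 difference 0.69 ± 0.12 SE, adjusted p = 0.00368, and 0.163 with equal medians). N6 lay in and just over the control range, 858 to 1227. The other ACC oxidase genes ACO4 and ACO5 were at 0.74 ± 0.21, adjusted p = 0.0774 with 16 arrays and 0.0708 with 8, and at 0.81 ± 0.65, adjusted p = 0.635 with 16 arrays and 0.0406 with 8. Each of the 6 receptors measured, ETR1 to ETR6, was within 0.35 of zero on the log2 scale and none was called.

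Of 14 measured genes for ERF, DREB and CBF factors, 2 were higher in N7 and 1 was lower, with a median of 0.08 and 4 at an unadjusted p under 0.05. PTI5, an ERF factor known to bind the Pto kinase, read 168, 102, 101 and 168 on N6 1 to 4 and 51.1, 34.2, 49.8 and 41.2 on N7 1 to 4. It was near or under the floor in N7 and clear of it in N6, at least 2.60-fold higher there (log2 difference -1.38 ± 0.23 SE, adjusted p = 0.00313, and 0.208 with a floor of 100). The controls, 14.3 to 101, spanned the floor, and the difference from VC was 0.95 (adjusted p = 0.00936) in N6 and -0.42 (adjusted p = 0.205) in N7. Without VC 4 it was 1.15 (adjusted p = 0.00116) and -0.23 (adjusted p = 0.437). DREB2, of the dehydration-responsive class, read 92.2, 63.7, 92.4 and 92.6 in N6 and 124, 219, 166 and 130.0 in N7, 1.85-fold higher (log2 difference 0.88 ± 0.23 SE, adjusted p = 0.0483). That call was lost without any one of 14 of the 16 arrays, all but WT 3 and VC 4 (adjusted p 0.0523 to 0.167), with the 8 line arrays alone (adjusted p = 0.0572) and with equal medians (adjusted p = 0.0901). JERF3 read 834, 1071, 1064 and 1040.2 in N6 and 1434, 1274, 1323 and 1322 in N7 (log2 difference 0.42 ± 0.10 SE, adjusted p = 0.0285), a call lost without any one of the 8 line arrays (adjusted p 0.0513 to 0.0997) and with equal medians (adjusted p = 0.660). JA2, a NAC-domain transcription factor, averaged 690.2 ± 123 in N6 and 1043 ± 124 in N7 (SD, n = 4 each), without overlap (log2 difference 0.61 ± 0.16 SE, adjusted p = 0.0478). Leaving out any one of 12 arrays, which excepted WT 3, VC 2, VC 4 and N7 3, ended that call (adjusted p 0.0513 to 0.182), as did the 8 line arrays alone (adjusted p = 0.0622) and equal medians (adjusted p = 0.478).

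Called genes of the cell wall lists were lower in N7. Of 10 measured genes of xyloglucan remodelling and expansins, 3 were lower, none was higher and the median was -0.15, with 4 at an unadjusted p under 0.05. XTH9, a xyloglucan endotransglucosylase/hydrolase that cuts and rejoins xyloglucan, read 311, 253, 238 and 296 on N6 1 to 4 and 100.04, 90.2, 69.3 and 86.1 on N7 1 to 4. N6 overlapped the controls, 268 to 888, and N7 lay under both, 3.18-fold below N6 (log2 difference -1.67 ± 0.34 SE, adjusted p = 0.0119). The expansin gene exp9, of a family that loosens walls without hydrolysis, read 146, 119.7, 139.9 and 112 in N6 and 51.1, 51.6, 47.1 and 53.9 in N7. The N7 arrays sat near the floor, so the difference was at least 2.49-fold (log2 difference -1.32 ± 0.30 SE, adjusted p = 0.0236). Its call was lost without any one of 7 of the 8 line arrays, all but N6 4 (adjusted p 0.0521 to 0.0803). Xegip, an inhibitor protein of xyloglucan-specific endoglucanase, read 288, 269, 288 and 242 in N6 and 150.2, 112, 158 and 96.2 in N7, under the controls at 347 to 484 in both lines, and N7 was the lower by 2.14-fold (log2 difference -1.10 ± 0.18 SE, adjusted p = 0.00284, and 0.0813 with the 8 line arrays and the 3' to 5' ratio as a covariate). Fruit expansin EXP1 was brighter and differed less (-0.44 ± 0.16, adjusted p = 0.156 with 16 arrays and 0.0368 with 8).

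Among 14 measured genes of pectin and wall glycan hydrolases, 1 was called, lower in N7, and 5 passed an unadjusted p of 0.05, with a median of 0.07. PE1, a pectin methylesterase, read 5743, 6096, 7236 and 5453 on N6 1 to 4 and 4073, 3819, 4082 and 4657 on N7 1 to 4. The lines were separated by 1.47-fold (log2 difference -0.56 ± 0.11 SE, adjusted p = 0.0119, but 0.251 with equal medians and 0.0922 with the 8 line arrays and the 3' to 5' ratio as a covariate), and the controls at 4377 to 6248 reached into both. GP1, the polygalacturonase beta subunit, stands outside the list. It averaged 657 ± 54.6 in N6 and 389.9 ± 84.3 in N7 (SD, n = 4 each) and was 1.71-fold lower in N7 (log2 difference -0.77 ± 0.18 SE, adjusted p = 0.0274). The GP1 call was lost without any one of 7 line arrays, all but N7 3 (adjusted p 0.0548 to 0.0962), and with equal medians (adjusted p = 0.0829). Cel2, a ripening endoglucanase, read 4531, 5673, 5508 and 5656 in N6 and 2636, 2655, 2829.6 and 2702 in N7. It did not overlap between the lines and was called with the 8 line arrays alone (-0.98 ± 0.46, adjusted p = 0.305 with 16 arrays and 0.00110 with 8). On WT 3 and VC 4 it read 1276 and 1216, against 4718 to 5609 on the other controls. Cel3 was at -0.46 ± 0.13, adjusted p = 0.0775 with 16 arrays and 0.0194 with 8. Higher values in N7 stood in the same list at TBG6, a beta-galactosidase (0.61 ± 0.22, adjusted p = 0.166 with 16 arrays and 0.0989 with 8), and XYL2, a xylosidase (0.82 ± 0.26, adjusted p = 0.113 with 16 arrays and 0.125 with 8), and TBG4 was at -0.65 ± 0.30, adjusted p = 0.297 with 16 arrays and 0.302 with 8, none of the 3 called. PG2, the fruit polygalacturonase, overlapped between the lines at 1798 to 3335 in N6 and 1927 to 4778 in N7 (log2 difference 0.43 ± 0.25 SE, adjusted p = 0.443). Both lines lay under the PG2 controls, 5685 to 10536.

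RNase LX (rnalx), a ribonuclease of the S-like class, read 40.5, 55.4, 48.2 and 53.2 on N6 1 to 4 and 120.3, 114, 141 and 138 on N7 1 to 4. Only the N7 arrays stood clear of the floor, since the controls read 20.3 to 62.6, and the difference was at least 2.46-fold (log2 difference 1.30 ± 0.13 SE, adjusted p = 2.43e-05). The acid phosphatase gene APS1 was lower in N7, with 156, 142, 135 and 157 in N6 and 56.6, 66.0, 43.5 and 61.5 in N7. N6 lay within the controls, 89.0 to 167, and N7 under them and near the floor, at least 2.53-fold lower (log2 difference -1.34 ± 0.19 SE, adjusted p = 0.00123). The gene listed as APS-AA2, with no role given here, averaged 94.3 ± 4.80 in N6 and 57.0 ± 6.71 in N7 (log2 difference -0.71 ± 0.15 SE, adjusted p = 0.0154), and its call was lost without N6 3 (adjusted p = 0.0590) and with equal medians (adjusted p = 0.0639). Both lines were under the APS-AA2 controls, 145 to 192.

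Transport and membrane genes included ST3, a sugar transporter gene, which read 1050.3, 1041, 812 and 899 on N6 1 to 4 and 1655, 1491, 1611 and 1464 on N7 1 to 4. N6 overlapped the controls at 891 to 1132 and N7 lay above them, 1.64-fold above N6 (log2 difference 0.72 ± 0.11 SE, adjusted p = 0.00254, and 0.164 with equal medians). LHA2, a plasma membrane proton pump, was the 1 called of 9 measured ion transport genes (median -0.08, 2 at an unadjusted p under 0.05). It averaged 3287 ± 499.5 in N6 and 2251 ± 287 in N7 (SD, n = 4 each; log2 difference -0.54 ± 0.13 SE, adjusted p = 0.0306). The LHA2 call was lost without any one of 6 line arrays, all but N6 4 and N7 1 (adjusted p 0.0677 to 0.128), with the 8 line arrays alone (adjusted p = 0.0564) and with equal medians (adjusted p = 0.0964). The remorin gene rem-2, of a family of plasma membrane proteins, averaged 469 ± 142 in N6 and 943 ± 233 in N7 (log2 difference 1.04 ± 0.27 SE, adjusted p = 0.0484). Its call was lost without any one of 11 arrays, which excepted WT 3, WT 4, VC 1, VC 4 and N6 1 (adjusted p 0.0573 to 0.182), with the 8 line arrays alone (adjusted p = 0.0723) and with equal medians (adjusted p = 0.285).

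Of the remaining called genes with a symbol, histone H1 averaged 1431 ± 219 in N6 and 2329.9 ± 562 in N7 (SD, n = 4 each; log2 difference 0.69 ± 0.17 SE, adjusted p = 0.0418). It was the 1 called of 11 measured genes of the cell cycle, chromatin and cytoskeleton list (median 0.16, 3 at an unadjusted p under 0.05). The H1 call was lost without any one of 10 arrays, which excepted WT 3, WT 4, VC 2, VC 4, N6 1 and N7 3 (adjusted p 0.0520 to 0.153), with the 8 line arrays alone (adjusted p = 0.0641) and with equal medians (adjusted p = 0.0982). A second H1 probe set, at the floor on all N6 arrays, was not called (0.24 ± 0.15, adjusted p = 0.517). CGS, cystathionine gamma-synthase of the methionine pathway, averaged 2630.2 ± 130.3 in N6 and 1791 ± 161 in N7 (log2 difference -0.56 ± 0.12 SE, adjusted p = 0.0155), a call lost without N6 2 or N7 4 (adjusted p 0.0603 to 0.0641) and with equal medians (adjusted p = 0.222). AN35 was higher in N7 (log2 difference 0.58 ± 0.15 SE, adjusted p = 0.0482), a call lost without any one of 12 arrays, all but WT 3 and VC 2, 3 and 4 (adjusted p 0.0609 to 0.180), and with equal medians (adjusted p = 0.222). LOC778302 read 50.9, 53.3, 53.7 and 70.5 in N6 and 113, 136, 118 and 131 in N7 (log2 difference 1.13 ± 0.19 SE, adjusted p = 0.00329, but 0.0688 with equal medians and 0.333 with a floor of 100), so that N7 lay between N6 and the controls at 196 to 338. LOC543663 was higher in N7 on its brightest probe set (log2 difference 0.62 ± 0.14 SE, adjusted p = 0.0249) and not called on its other 2, and the call was lost without any one of 6 line arrays, all but N6 4 and N7 4 (adjusted p 0.0592 to 0.0875), and with equal medians (adjusted p = 0.411).

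Several lists that bear on the introduced enzyme or on ripening had no called member with limma and 16 arrays. The 9 measured genes of inositol, calcium and phosphoinositide signalling had a median of 0.11, and 2 of them passed an unadjusted p of 0.05. One of these was IMP1, an inositol monophosphatase, which read 165, 157, 139 and 120.0 on N6 1 to 4 and 234, 283, 219 and 210.3 on N7 1 to 4. IMP1 did not overlap between the lines and was called with the 8 line arrays alone (0.71 ± 0.22, adjusted p = 0.0972 with 16 arrays and 0.0368 with 8). The phospholipase D gene PLDa1 was at 0.38 ± 0.16, adjusted p = 0.245 with 16 arrays and 0.0646 with 8, and the calcium pump gene LCA1 was near the floor in both lines. The 20 measured ripening genes had a median of -0.14 and 2 members at an unadjusted p under 0.05, EXP1 and TBG4. With 8 arrays 2 were called, EXP1 and Cel2, both lower in N7. The 15 carotenoid and isoprenoid genes had a median of -0.11 and 2 members at an unadjusted p under 0.05. FPPS1, farnesyl pyrophosphate synthase, was the lower in N7 of these (-0.74 ± 0.20, adjusted p = 0.0582 with 16 arrays and 0.00364 with 8), while Psy1, the fruit phytoene synthase, overlapped between the lines (log2 difference -0.31 ± 0.17 SE, adjusted p = 0.416).

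Other lists without a call held single genes with wide gaps between the lines. Chitinase CHI14 read 67.7, 91.5, 87.6 and 65.0 on N6 1 to 4 and 415, 334, 179.7 and 371 on N7 1 to 4, and PR1b1, a pathogenesis-related protein, read 53.7, 67.7, 41.2 and 46.2 in N6 and 167, 207, 345 and 101 in N7. Neither overlapped between the lines. CHI14 was at 2.01 ± 0.58, adjusted p = 0.0783 with 16 arrays and 0.00871 with 8. PR1b1 was at 1.76 ± 0.47, adjusted p = 0.0556 with 16 arrays and 0.0284 with 8. The control spread was wide for CHI14, with 143 on WT 3 and 79.4 on VC 4 against 425 to 704 on the other controls. Their list of 10 measured pathogenesis-related genes had a median of -0.03 and 3 members at an unadjusted p under 0.05. In the dehydration and lipid transfer list of 10 (median 0.20, 2 at an unadjusted p under 0.05), the lipid transfer genes differed in opposite directions. LE16 read 763, 605, 695 and 503 in N6 and 1939, 1857, 1855 and 1204 in N7 (1.41 ± 0.37, adjusted p = 0.05004 with 16 arrays and 0.00850 with 8). TSW12 read 214, 343, 373 and 392 in N6 and 60.0, 62.8, 35.2 and 163 in N7 (-2.11 ± 0.76, adjusted p = 0.165 with 16 arrays and 0.0244 with 8). OPR3, of jasmonate synthesis, was at 0.80 ± 0.23, adjusted p = 0.0774 with 16 arrays and 0.0301 with 8 in a list of 11 (median 0.14, 1 at an unadjusted p under 0.05).

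Sucrose, hexose and starch metabolism had 17 measured genes, a median of 0.00, no call with limma and 16 arrays, and 6 members at an unadjusted p under 0.05. Over all tested probe sets, 1016 of 6208 were at that p. The fructokinase FRK1 was higher in N7 with the 8 line arrays (0.52 ± 0.16, adjusted p = 0.110 with 16 arrays and 0.0278 with 8), and FRK3 (-0.40 ± 0.18, adjusted p = 0.271 with 16 arrays and 0.0431 with 8) and the hexose transporter HT2 (-0.99 ± 0.37, adjusted p = 0.178 with 16 arrays and 0.0225 with 8) were lower. HT2 was under the floor on N7 2 to 4, at 42.2 to 49.4, so its difference is a lower bound and its spread in N7 is cut short. CIF1 did not overlap between the lines, and both lay above its controls (log2 difference 0.44 ± 0.20 SE, adjusted p = 0.276). In translation and protein turnover, none of 11 was called with 16 arrays, 2 passed an unadjusted p of 0.05, and the subtilase SBT1 was called with 8 (-1.14 ± 0.32, adjusted p = 0.0736 with 16 arrays and 0.00588 with 8). Neither the 16 arrays nor the 8 line arrays alone gave a call among 11 genes of GABA, amino acid and polyamine metabolism (median -0.01, 1 at an unadjusted p under 0.05), 16 of kinases and resistance signalling (-0.01, none), 5 of phenylpropanoid and aroma synthesis (-0.29, 1) and 3 of auxin response (-0.04, none). Without WT 3 and VC 4, AAT (adjusted p = 0.0136) and CHS2 (adjusted p = 0.0383) of the phenylpropanoid and aroma list and tft10 (adjusted p = 0.0452) of the kinase list were called, all 3 lower in N7. That fit called 11.4% of all tested probe sets, so these few calls are no result about the lists.

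**Figure D3:**
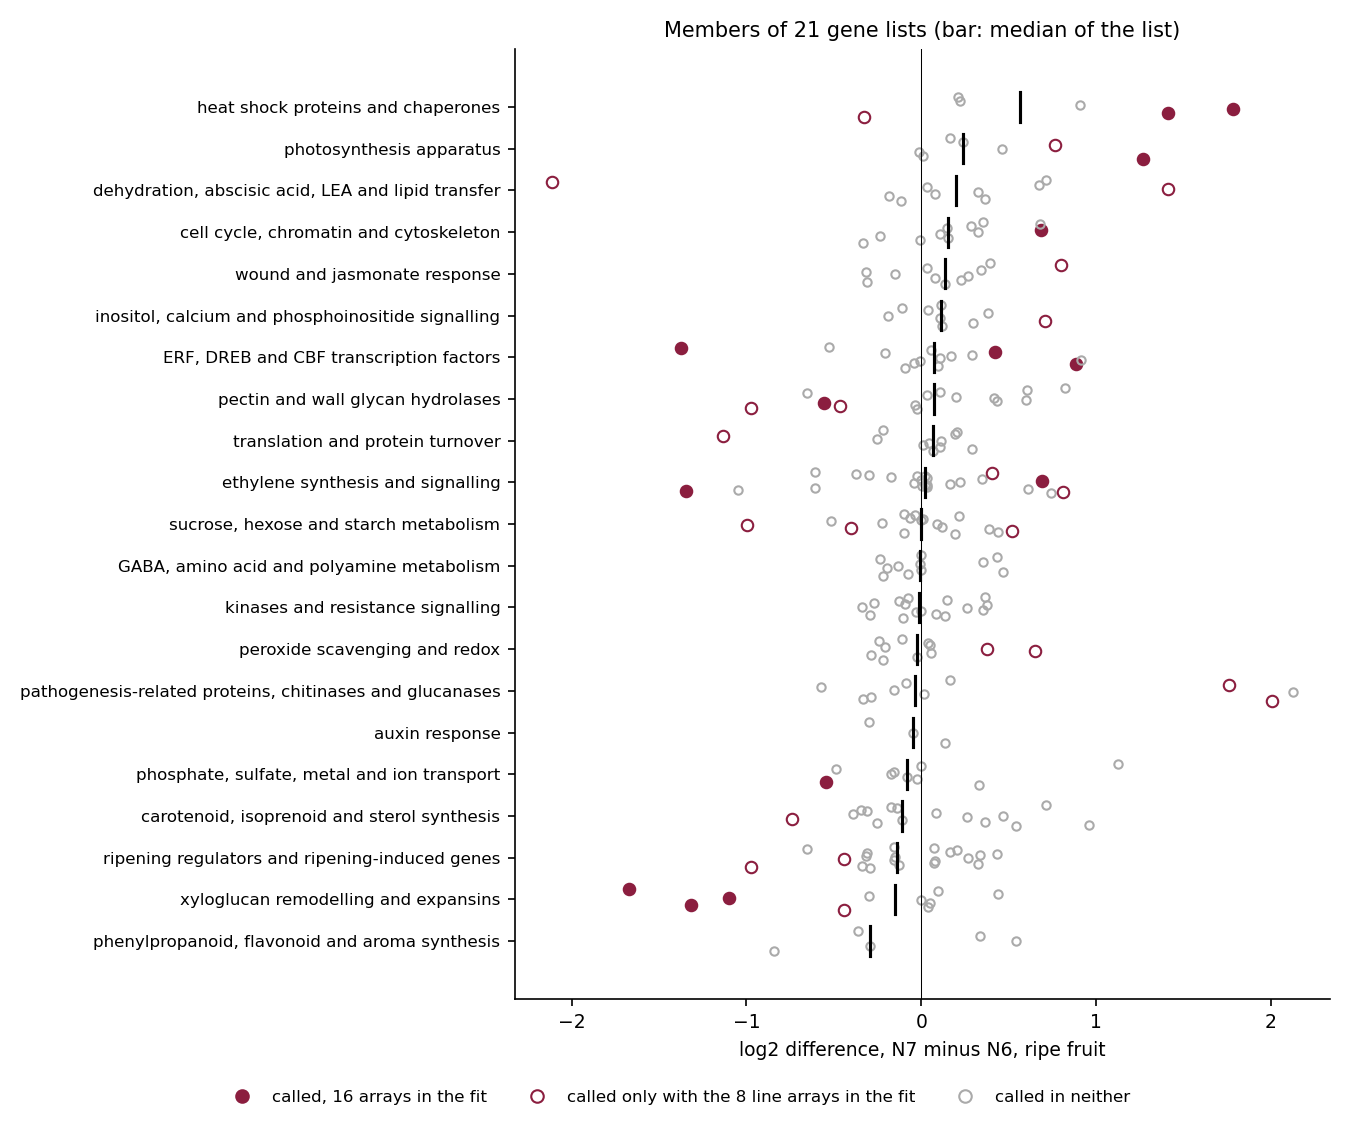
Each row is 1 of 21 gene lists and each point a measured gene at its log2 difference N7 minus N6 in ripe fruit, with the list's median as a bar. Filled points passed the test with 16 arrays, open red points with the 8 line arrays alone, and grey points with neither. The 3 filled points of xyloglucan remodelling and expansins all lie left of zero and the 2 of the chaperones right of it.

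Most of the called probe sets had no symbol here, 151 of 180. Probe set Les.4923.1.S1_at read 23.5, 46.3, 44.8 and 45.5 on N6 1 to 4, all under the floor, and 889, 720.4, 516 and 877 on N7 1 to 4. N7 lay at least 14.7-fold above N6 (log2 difference 3.88 ± 0.54 SE, adjusted p = 0.00123). The controls read 173 to 1091, with 190 on WT 3 and 173 on VC 4. The other controls read 848 to 1091, and N7 2 and N7 3 lay under them. Les.2478.1.S1_a_at read 114, 172, 184 and 158 in N6 and 1244, 1243, 1584 and 818 in N7, with the controls at 1138 to 3231 (log2 difference 2.95 ± 0.31 SE, adjusted p = 4.38e-05). In both probe sets all N6 arrays lay under the controls, while N7 overlapped them. Les.1331.1.A1_at read 224, 238, 226 and 286 in N6 and 55.7, 71.4, 54.7 and 32.7 in N7, while all 8 controls were under the floor (log2 difference -2.08 ± 0.14 SE, adjusted p = 3.68e-07). LesAffx.56637.1.S1_at read 802, 787, 629 and 817 in N6 and 325, 245, 206 and 224 in N7 (log2 difference -1.62 ± 0.29 SE, adjusted p = 0.00486). N7 lay under all controls, 384 to 1157. N6 lay inside that range, but its top came from WT 3 at 1157 and VC 4 at 1078. The other controls read 384 to 652, and N6 1, N6 2 and N6 4 lay above them.

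The same contrast was then read in leaf and in root tips of in vitro seedlings, the leaf seedlings light-grown and the root seedlings labelled etiolated, on arrays that the fruit contrast does not use (3 per line and tissue). The labels do not tell whether leaf and root tip replicates are separate plants, and their p-values may rest on technical spread alone. In leaf, N7 and N6 differed in 293 of 6535 tested probe sets (4.48%), and in root tips in 3 of 6495 (0.0462%). Of the 180 probe sets called in fruit, 160 were tested in leaf, where 3 were called, all 3 higher in N7 as in fruit (2.8% of all leaf probe sets were), and 89 had the same sign. In root tips 148 were tested, none was called, and 71 had the same sign. The difference between tissues was tested itself. The line difference in fruit departed from that in leaf in 270 of 5597 probe sets (4.82%) and from that in root tips in 42 of 5535 (0.759%). Because the fruit arrays are shared with the contrast that chose them, the 67 of 160 called probe sets that departed from leaf and the 31 of 148 that departed from root tips are a description. Across all probe sets, the line differences of fruit and leaf had a Pearson correlation of 0.04 (5597 probe sets), and those of fruit and root tips -0.06 (5535), where probe sets are not independent replicates.

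Among the named genes, CIP1 was at 0.28 ± 0.18 SE in leaf and 0.49 ± 0.37 in root tips, against 2.34 in fruit. Its fruit difference exceeded that in leaf (2.06 ± 0.29, adjusted p = 9.41e-05) and that in root tips (1.86 ± 0.41, adjusted p = 0.0260). XTH9 was lower in N7 in fruit and at 1.09 ± 0.56 in leaf, not called there (fruit minus leaf -2.76 ± 0.64, adjusted p = 0.0132). In leaf XTH9 read 905, 431 and 408 on N6 1 to 3 and 1971, 2046 and 384 on N7 1 to 3, so N7 3 lay under all N6 arrays. ACO6 was at 0.27 ± 0.17 in leaf (fruit minus leaf -1.62 ± 0.28, adjusted p = 0.00134). GLX1 was at 0.04 ± 0.13 in leaf and -0.18 ± 0.14 in root tips, and fruit departed from both (0.97 ± 0.23, adjusted p = 0.0138 and 1.18 ± 0.23, adjusted p = 0.00888). Histone H1 was at -0.54 ± 0.19 in leaf, not called there (fruit minus leaf 1.22 ± 0.27, adjusted p = 0.00829). APS1 was at -0.33 ± 0.19 in leaf and -0.25 ± 0.24 in root tips, neither of them called. HSP17.4, ER-SHSP and PE1 were tested in fruit alone, since too few leaf and root arrays exceeded the floor.

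**Figure D4:**
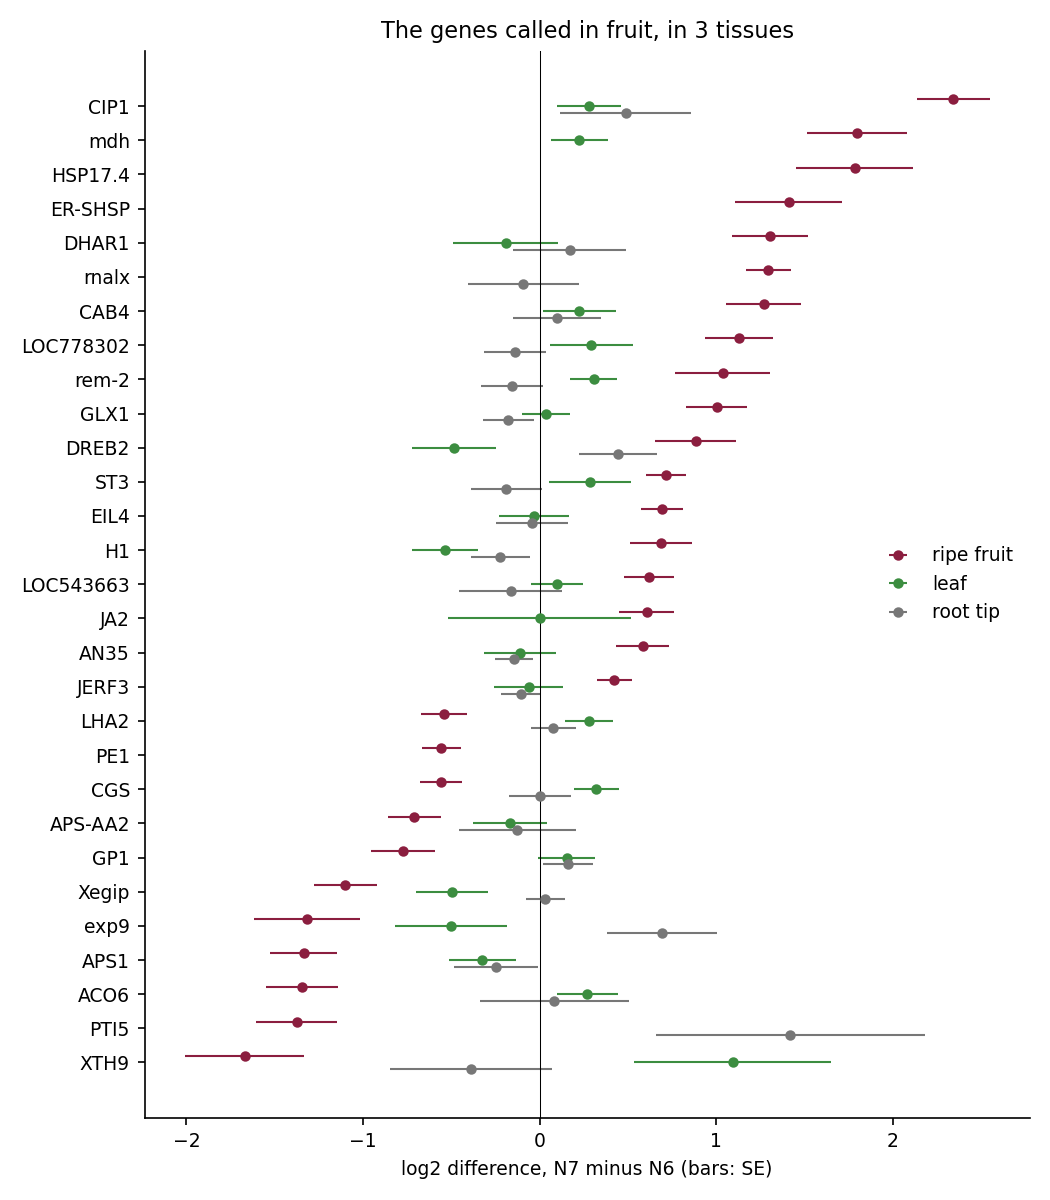
For the 29 genes with a symbol called in fruit, points give the log2 difference N7 minus N6 in ripe fruit, leaf and root tips, and bars the standard error of the fit. Fruit points run from 2.34 for CIP1 to -1.67 for XTH9, while most leaf and root points lie nearer to zero, and a missing point was not tested in that tissue.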

How the data were processed

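Ripe fruit was profiled on 16 Affymetrix tomato arrays, 4 per genotype, of which the 4 labelled N7 and the 4 labelled N6 are compared here. The authors deposited linear intensity values from GCOS (version not stated), per the submitters' processing notes. Without 2% of signals at each end, all arrays shared a trimmed mean of 500, and this global scaling was kept. From these, log2 of the deposited signal with a floor of 50 was computed. Left out were 108 control and 63 reporter probe sets. A probe set was tested when above the floor on at least 4 of the 16 fruit arrays (3 in leaf or root tips). The test was that of limma 3.58.1 (R 4.3.3), with 1 mean per genotype, a variance trend and Benjamini-Hochberg adjustment over all tested probe sets, after the code was tested on simulated data. All p-values are two-sided. The number of arrays limits the precision.

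Symbols came from the platform annotation, 1 for 909 probe sets and none for 9129, of which 885 were matched to a gene table of assembly SLM_r2.1, used for names only. Named were called genes with a symbol, up to 15 highest and 15 lowest, the rest of those called, up to 4 members per list, the 4 extreme probe sets without a symbol, 2 reporters and the marker genes. Members, lists and alternatives were chosen with earlier results of these data known. From 2 lists pip1 was removed and from 1 list ST3, since the symbol there names another protein. One list gene is represented by its brightest probe set.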

Additional observations from a re-analysis of the deposited data

Results flagged for a closer look

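In 7 of the 66 groups of 4 examined, 1 array met Dixon's criterion for the gap over the range of log2 signals after the floor of 50, which chance meets in about 1 group in 20. PTI5 on N7 1 at 51.1 met it because the other 3 arrays, at 34.2 to 49.8, were all set to the floor, and it did not stand far from them as deposited. The others were LOC778302 on N6 4 at 70.5, DREB2 on N6 2 at 63.7, H1 on N7 4 at 3168, APS-AA2 on N7 3 at 46.9, JERF3 on N6 1 at 834 and LesAffx.56637.1.S1_at on N6 3 at 629. No cause was tested.

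The difference between the lines in fruit departed from that in leaf for 16 of 28 named genes and probe sets tested in both, as a contrast of the differences in limma. Fruit exceeded leaf for CIP1 at 2.06 (adjusted p = 9.41e-05), mdh at 1.57 (adjusted p = 0.0122), DHAR1 at 1.499 (adjusted p = 0.0190), CAB4 at 1.04 (adjusted p = 0.0319), GLX1 at 0.97 (adjusted p = 0.0138), DREB2 at 1.37 (adjusted p = 0.0232), H1 at 1.22 (adjusted p = 0.00829) and Les.2478.1.S1_a_at at 2.81 (adjusted p = 0.000185). It was below leaf for XTH9 at -2.76 (adjusted p = 0.0132), ACO6 at -1.62 (adjusted p = 0.00134), APS1 at -1.01 (adjusted p = 0.0277), GP1 at -0.93 (adjusted p = 0.0272), CGS at -0.88 (adjusted p = 0.00367), LHA2 at -0.82 (adjusted p = 0.0122), LesAffx.56637.1.S1_at at -2.69 (adjusted p = 0.00169) and Les.1331.1.A1_at at -2.14 (adjusted p = 3.55e-05). Against root tips, 10 of 28 departed. Fruit exceeded root tips for CIP1 at 1.86 (adjusted p = 0.0260), rnalx at 1.39 (adjusted p = 0.0377), LOC778302 at 1.27 (adjusted p = 0.0146), GLX1 at 1.18 (adjusted p = 0.00888), ST3 at 0.90 (adjusted p = 0.0496), Les.4923.1.S1_at at 4.19 (adjusted p = 0.00193) and Les.2478.1.S1_a_at at 2.75 (adjusted p = 0.00123). It was below root tips for exp9 at -2.01 (adjusted p = 0.0260), Xegip at -1.13 (adjusted p = 0.00479) and Les.1331.1.A1_at at -2.19 (adjusted p = 3.76e-06). The fruit arrays behind these values also chose the genes.

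The reporter probe set A06498, which no comparison of transcripts used, averaged 278.03 in fruit N7 and was under the floor on every fruit array labelled N6, WT or VC. The sequence it detects was not stated in the labels.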

How the results depend on the processing

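The 180 calls kept their direction wherever they were tested, in 180 of 180 under each setting except the floor of 100, where 167 were tested, 166 kept it and 1 was at zero. Numbers of calls moved more. Against 180 called (120 higher in N7 and 60 lower), the 8 line arrays alone gave 400 (251 and 149), 708 (454 and 254) came without both WT 3 and VC 4, array weights 1912 (1190 and 722), the 3' to 5' ratio as a covariate 491 (287 and 204), and that covariate with the 8 line arrays alone, a setting added after the data were seen, 148 (82 and 66). Equal medians gave 96 (45 and 51), 68 of them among the 180, and quantile normalization 204 (112 and 92). Leaving out 1 array at a time gave 83 to 287 called, 53 to 191 higher and 27 to 96 lower. It was 95 and 83 when N6 2 or N6 3 was omitted, 108, 97 and 97 when N7 1, N7 2 or N7 4 was, and 287 and 281 when WT 3 or VC 4 was. The floors, filters and variance models gave 154 to 195. The count of probe sets whose line difference departed from that in leaf, 270, was 130 with equal medians, 588 with N6 and N7 arrays alone and 121 to 406 with 1 array left out. That for root tips, 42, was 27 with a floor of 100, 20 with equal medians, 80 with N6 and N7 arrays alone and 22 to 38 with 1 array left out. Of 33 named genes and probe sets called, 12 kept the call in all 31 settings and 21 lost it in at least 1.

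The replicate block, with the replicate number as a term, gave 142 calls (96 and 46), 136 of them among the 180, and 210 and 38 departures from leaf and root tips. Deviations of same-numbered N6 and N7 arrays correlated at 0.295, 0.0649, 0.413 and -0.214, and 1 of 4 numbers was its own best partner. Whether the numbers pair the arrays was not tested, and the main fit did not pair them.

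The cause of these changes was not tested. Precision rests on 4 arrays per line. Signals near the floor carry no order, and most called probe sets have no symbol. The fruit arrays labelled N6 lack the A06498 signal of N6 leaf and root tips, and which line they came from was not tested. The fruit WT arrays carry an M62653 signal that WT leaf and root tips lack, and its source was not tested either. Leaving VC 4 out of the contrasts with VC, added after the data were seen, kept the direction and side of the threshold for HSP17.4, GLX1, CIP1 and PTI5 in both lines. Calls rose when WT 3 and VC 4 were left out.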
